A study of Mus musculus with 40 samples.

Results

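Fibroblast nuclei of the mouse kidney were the 598 nuclei that the authors' deposited annotation, in its coarser form of 30 classes, names Fib, of 16500 nuclei in all. They came from a cross-sectional piece of the right kidney of 4 male C57BL/6 mice, aged 8 to 12 weeks, taken 24 h after surgery. The comparison was between removal of the left kidney (unilateral nephrectomy, UNx) and a sham operation that left it in place, with 2 mice each. All had isoflurane anaesthesia and were given saline and buprenorphine. The labels put sham 1 and UNx 1 in batch 3 and sham 2 and UNx 2 in batch 4, so each batch holds 1 mouse of each group. The 4 mice gave 193 (sham 1), 127 (sham 2), 158 (UNx 1) and 120 (UNx 2) fibroblast nuclei. Bulk libraries of 36 other mice of the same sex, strain and age range, taken 24, 48 or 72 h after surgery with 6 mice per surgery and time, were used to read fibroblast genes in whole tissue.

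Kidney fibroblasts lie in the interstitium between tubules and capillaries, where they build and turn over collagens, laminins and proteoglycans. They receive platelet-derived growth factor (PDGF) and transforming growth factor beta signals, secrete insulin-like growth factor and its binding proteins, complement components and cytokines, and a cortical subset makes erythropoietin. On injury, some take on a contractile, matrix-producing myofibroblast state marked by smooth muscle actin and transgelin. After loss of 1 kidney the other grows, mainly by enlargement of its tubule cells, and the comparison asked how the remaining kidney's nuclei differ from those of sham mice early in that growth.

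The libraries of batch 4 stood apart from those of batch 3 within this class. Expression was read as CPM, the counts of a gene per 1000000 counts summed over a mouse's fibroblast nuclei. The 13 fibroblast markers summed to 6742 CPM in sham 1 and 6797 in UNx 1, against 2146 in sham 2 and 1507 in UNx 2. By contrast, 12 proximal tubule markers summed to 4630 and 7041 CPM in batch 3 and to 16004 and 16655 CPM in batch 4, and 10 markers of the loop of Henle and distal tubule to 406 and 442 against 4125 and 4813 CPM. The summed levels of tubule markers thus differed by batch far more than by surgery, and their part in the differences between sham and UNx below was not tested. The other lists were low: 10 mural markers summed to 368, 225, 520 and 171 CPM (sham 1, sham 2, UNx 1, UNx 2), 10 endothelial markers to 435, 573, 266 and 484, and 10 macrophage markers to 47.4, 112, 62.8 and 80.4. The T cell gene Cd3e, the B cell gene Cd79a and the urothelial gene Krt20 were at 0 in all 4 mice. Median UMIs (unique molecular identifiers, which count captured RNA molecules) per fibroblast nucleus were 5373, 9019, 5781 and 9037, and the summed totals were 1112943, 1968301, 954154 and 1566721 UMIs in the same order. Of the cell barcodes, 18 occurred in more than 1 library, and 1 fibroblast nucleus carried such a barcode.

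**Figure D1:**
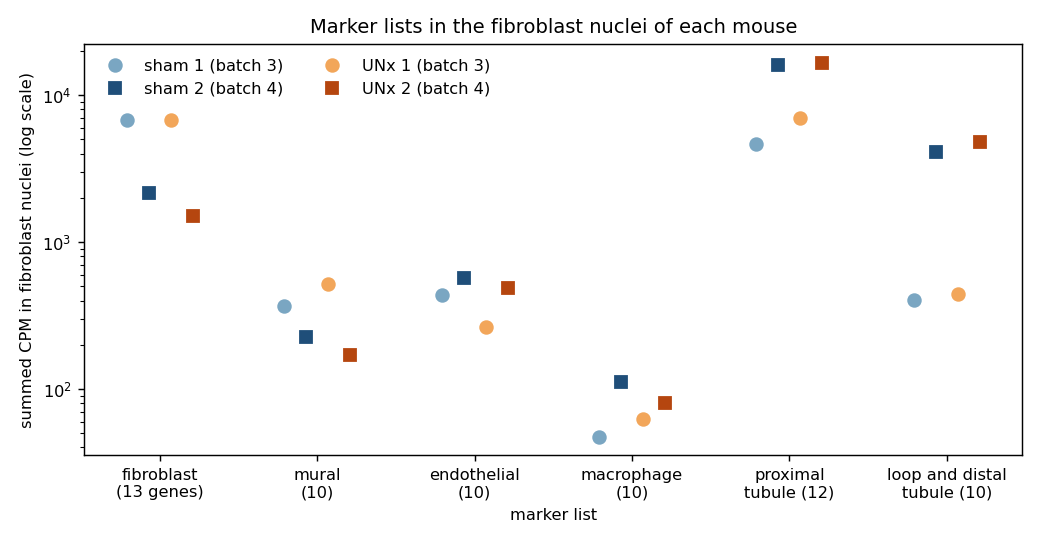
Summed CPM (log axis) of 6 marker lists in the fibroblast nuclei of each mouse, with 1 point per mouse and no error bar. The squares of batch 4 lie below the circles of batch 3 for fibroblast markers and above them for both tubule lists.

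The class held the markers of its label. Pdgfra, the PDGF receptor of mesenchymal cells, averaged 285 CPM over the 4 mice, Col1a1, a chain of type I collagen, 52.9 CPM, and Dcn, the proteoglycan decorin, 107 CPM. For Col1a1 and Dcn this was the highest of the 27 classes with at least 10 nuclei in each of 2 or more mice, the next being a class whose name in the annotation gives no cell type, with 21.1 and 38.3 CPM. Pdgfra was higher in the small class of pericytes (391 CPM). The other 3 classes (68 Adipo, 27 B cell and 23 Macro nuclei) were read only as pooled nuclei, with at most 9.30 CPM of Pdgfra, 6.33 of Col1a1 and 14.9 of Dcn, and enter no ratio below. At least 1 UMI of the 3 markers was found in 504 of 598 nuclei (84.3%), and in 86.5, 84.3, 84.8 and 80.0% of the nuclei of sham 1, sham 2, UNx 1 and UNx 2. Free RNA can put UMIs into nuclei that do not express a gene, so the first segment of the proximal tubule (PTS1) was read beside it: Pdgfra had a UMI in 73.7% of fibroblast and 2.00% of PTS1 nuclei, although the median UMI count was 6254 in the former and 10874 in the latter. Thinned to 1500 UMIs per nucleus, the shares were 35.6 and 0.148% for Pdgfra, 8.36 and 0.297% for Col1a1 and 11.7 and 0.556% for Dcn.

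The genes that set the class apart most were ranked by the ratio of their CPM to that of the class with the next highest level, among genes with at least 50 CPM in every mouse. The class was built from such genes, so these ratios describe it and test nothing. C7, a terminal complement component, led with 864, 256, 838 and 136 CPM in sham 1, sham 2, UNx 1 and UNx 2, a mean 43.7 times that of the next class, juxtaglomerular cells. Abca8a, a lipid transporter, followed at 22.8 times and Ak5, an adenylate kinase, at 22.3 times. Among the 20 leading genes, those of the matrix were Fbln5 (fibulin 5, an elastic fibre protein, 13.8 times), Fn1 (fibronectin, 7.47 times), Col3a1 (type III collagen, 5.77 times), Col14a1 (5.68 times), Svep1 (5.95 times) and the metalloprotease Adam12 (6.64 times). Others were genes best known from neurons, such as the synaptic genes Csmd1, Gria4 and Grm7, the cytokine receptor chain Cntfr and the chemokine Cx3cl1 (4.29 times). The next class was juxtaglomerular cells for 10 of the 20 genes and pericytes for 5. None of these 20 genes reached 1.5-fold in the same direction in both batches after UNx. Of all genes tested only 1.41% did so upward and 2.14% downward, so a count of 0 among 20 says little. Their median log2 difference was 0.03, with a median of 0.13 in batch 3 and -0.43 in batch 4.

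Structure among the 598 nuclei was described by principal components of 1000 variable genes and by splitting the nuclei into 3 k-means groups, which are groups of this clustering and not named cell types. Group 1, with 348 nuclei, was led among named genes by Nrxn3, Gabra3, Lmod1, Igfbp3, Hpgd, Abca8a, Epha3 and Aldh1a2. Group 3, with 116 nuclei, was led by Kcnd2, Cntn1, Lrriq1, Tnc (the matrix protein tenascin C), Nav3, Ltbp1 and Bmpr1b. Group 2, with 134 nuclei, was led by tubule genes such as Slc12a3 (the thiazide-sensitive sodium chloride cotransporter of the distal tubule), Esrrg, Pkhd1, Erbb4 and Trpm6, and its median UMI count was 16762. Its 13 fibroblast markers summed to 1120 CPM, against 6579 in group 1 and 5230 in group 3, while its proximal tubule markers summed to 16708 CPM (7950 and 8210 in the others) and its loop and distal markers to 5199 CPM (640 and 733). Group 2 was almost confined to batch 4: it held 5 nuclei of sham 1 (2.59%), 57 of sham 2 (44.9%), 1 of UNx 1 (0.633%) and 71 of UNx 2 (59.2%). Whether doublets (droplets that catch 2 nuclei) had been removed before deposit is not stated in the labels, none were called here, and their part in group 2 was not tested. Results below are therefore also given without group 2, an alternative chosen after seeing the data.

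**Figure D2:**
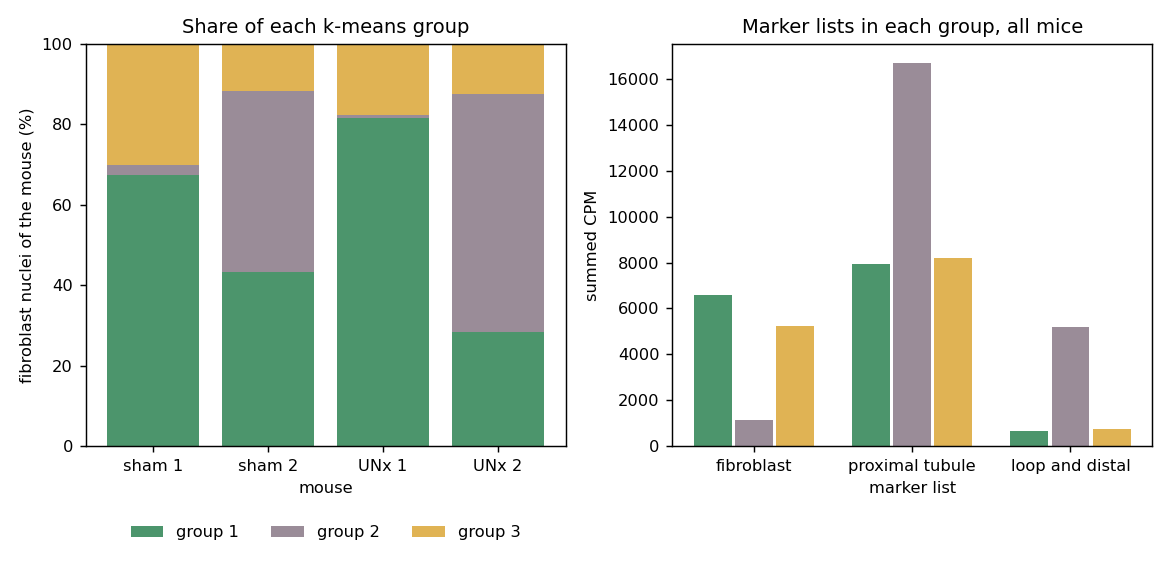
Left, the share (%) of each mouse's fibroblast nuclei in k-means groups 1, 2 and 3; right, summed CPM of 3 marker lists in each group over all mice. Group 2 held 44.9 and 59.2% of the nuclei of sham 2 and UNx 2 and 2.59 and 0.633% in sham 1 and UNx 1.

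Groups 1 and 3 also held tubule RNA, at levels that followed the batch, with proximal tubule markers at 4446, 13865, 6920 and 13742 CPM in group 1 and 5276, 14011, 7483 and 14335 CPM in group 3 (sham 1, sham 2, UNx 1, UNx 2). In the same order, non-fibrillar collagens summed to 4039, 3522, 4057 and 2764 CPM in group 1 and 1859, 2248, 2497 and 2210 CPM in group 3, so they were higher in group 1 in every mouse. Genes of transforming growth factor and bone morphogenetic protein signalling were higher in group 3 in every mouse, at 5304, 3803, 4843 and 3896 CPM against 3809, 3349, 4049 and 3224 CPM. The groups were made from the expression of these nuclei, so such differences describe the groups and test nothing. The part of leading genes of group 3, such as Bmpr1b, in this sum was not tested. Single markers were less even: Pdgfra was higher in group 3 in 3 of 4 mice, but not in sham 2 (272 CPM in group 1, 259 in group 3), and Dcn was higher in group 1 in all 4, by least in sham 2 (212 against 205 CPM) and by most in UNx 2 (175 against 13.8 CPM, the latter on 1 count). Col1a1 rested on 17 counts in group 3, which allow no comparison. Group 3 made up 30.9% (sham 1), 21.4% (sham 2), 17.8% (UNx 1) and 30.6% (UNx 2) of the nuclei of groups 1 and 3, so the surgery groups overlapped. The first principal component held 9.54% of the variance, ran from Tshz2, Lama2 and Dlc1 to Esrrg, Pkhd1, Slc34a1 and Lrp2, and followed the UMI count of a nucleus (r = 0.703 over the 598 nuclei, which share 4 libraries).

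Fibroblast nuclei were a smaller share of all nuclei in the UNx mice of both batches, but the 2 groups could not be separated by a test. They made up 3.61% of the nuclei of sham 1 (exact Clopper-Pearson 95% interval 3.13 to 4.15%), 4.81% in sham 2 (4.02 to 5.70%), 3.07% in UNx 1 (2.61 to 3.58%) and 3.57% in UNx 2 (2.96 to 4.25%). Both UNx values lay under both sham values. The means were 4.21% ± 0.846 (SD, n = 2) and 3.32% ± 0.352 (SD, n = 2), a difference of -0.895 percentage points, with -0.546 in batch 3 and -1.24 in batch 4. The exact two-sided permutation test gave p = 0.333, the smallest that 2 against 2 mice allow. Leaving out sham 2 reduced the difference to -0.297 points and leaving out sham 1 widened it to -1.49. Without group 2 the shares were 3.52, 2.65, 3.05 and 1.46% for sham 1, sham 2, UNx 1 and UNx 2, and the surgery groups then overlapped. The intervals cover counting error only, and a share moves with the number of every other nucleus that was captured.

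No gene passed the test for an effect of UNx in fibroblast nuclei. Counts were summed per mouse and 11463 genes were fitted with edgeR's quasi-likelihood test, and 0 (0%) had an adjusted p under 0.05. At an unadjusted p under 0.05 there were 18 genes with edgeR, 10 with DESeq2 and 11 with limma voom, each again with 0 called. With the batch as a replicate block edgeR also called 0, with 593 at an unadjusted p under 0.05. The biological coefficient of variation was 0.539 without the block and 0.157 with it. Of all tested genes, 1805 (15.7%) had UNx values on 1 side of both sham values. By a rule of at least 1.5-fold in the same direction in both batches, 162 genes (1.41%) were higher and 245 (2.14%) lower after UNx. The genes named next are the 12 with the lowest p in each direction among those whose surgery groups did not overlap, so that lack of overlap is part of how they were chosen, and their differences are described and not called. Their adjusted p was 1.00 each (edgeR). Without group 2, 11 of the 11 higher genes still tested and 12 of the 12 lower ones had no overlap in the same direction. The mice are the same there, and group 2 held only 5 nuclei of sham 1 and 1 of UNx 1. Lack of overlap was part of the choice, so its return is no separate support. Levels of single genes are CPM scaled by TMM, and differences are log2 of UNx over sham.

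**Figure D3:**
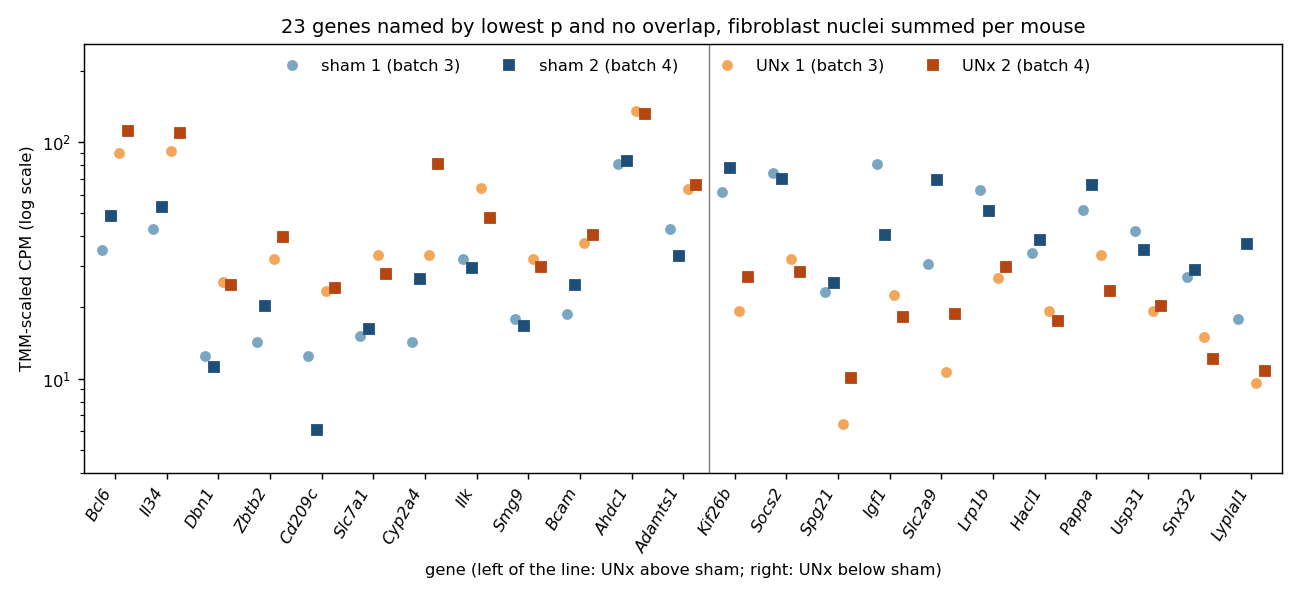
TMM-scaled CPM (log axis) of 23 named genes in the fibroblast nuclei of each mouse, 1 point per mouse, circles for batch 3 and squares for batch 4. Left of the line both UNx points lie above both sham points, right of it below.

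Bcl6 and Il34 had the lowest p among genes higher after UNx. Bcl6, a transcriptional repressor of cytokine and growth hormone targets (chr16:23965052-23988852 on the GRCm38 build), stood at 34.9 and 48.7 CPM in sham 1 and sham 2 and 89.9 and 111 CPM in UNx 1 and UNx 2, a log2 difference of 1.26 ± 0.38 (SE). All other nuclei of the same mice differed in the same direction, with 59.1, 71.7, 177 and 109.9 CPM in sham 1, sham 2, UNx 1 and UNx 2. Il34, a ligand of the macrophage colony-stimulating factor receptor (chr8:110741829-110805924), stood at 42.9 and 53.3 CPM in sham 1 and sham 2 and 92.0 and 109.8 CPM in UNx 1 and UNx 2, a difference of 1.07 ± 0.35 (SE), and was at 61.5, 65.2, 97.6 and 128 CPM in all other nuclei. Without group 2, Bcl6 was at 32.3, 16.7, 89.1 and 47.0 CPM, where UNx 2 was still above both sham mice. For both genes, with all nuclei kept, every UNx mouse was above every sham mouse, in fibroblast and in other nuclei alike. Ilk, the integrin-linked kinase of cell-matrix contacts, had 32.2, 29.4, 64.2 and 47.8 CPM in the same order of mice, and Adamts1, a matrix metalloprotease, 42.9, 33.0, 63.1 and 66.0 CPM. Dbn1, an actin-binding protein, was at 12.5, 11.2, 25.7 and 24.9 CPM and the laminin receptor Bcam at 18.8, 24.9, 37.4 and 40.4 CPM. The remaining 6 were Zbtb2, Cd209c, Slc7a1 (a cationic amino acid transporter), Smg9, Ahdc1 and Cyp2a4, whose close copies in the genome leave its count uncertain, with differences from 0.71 to 1.48.

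Igf1, the gene of insulin-like growth factor 1 (chr10:87858265-87937042), was among the lower genes, at 80.5 and 40.6 CPM in sham 1 and sham 2 and 22.5 and 18.2 CPM in UNx 1 and UNx 2, a difference of -1.57 ± 0.50 (SE), with -1.78 in batch 3 and -1.10 in batch 4. Both sham mice lay above both UNx mice, sham 1 furthest. In all other nuclei together Igf1 was at 23.5, 24.6, 26.5 and 19.9 CPM (sham 1, sham 2, UNx 1, UNx 2), with overlapping groups, although the difference between fibroblast and other nuclei, -1.46 ± 0.47 (SE), was not called (edgeR adjusted p = 1.00). Without group 2 the levels were 80.4, 64.5, 22.3 and 12.8 CPM, the last resting on 2 counts of group 1 and 1 of group 3. Pooling hides a class with far more Igf1: in the 710 nuclei of the endothelial class EC2 it was at 645, 314, 758 and 301 CPM, arranged by batch and with no common direction, and in the 796 of EC1 at 58.6, 51.5, 31.2 and 25.5 CPM, lower in both UNx mice. Endothelial markers in fibroblast nuclei separated the surgery groups, as Igf1 did, only when group 2 was left out. Without group 2, the 10 markers summed to 449, 581, 268 and 261 CPM, so both UNx mice lay below both sham mice, and 4 of 7 tested (Flt1, Ptprb, Adgrl4 and Tek) were at least 1.5-fold lower in both batches, with a median log2 difference of -1.12. That compares with 2.7% of the 9156 genes tested there lower and 2.33% higher. With all nuclei kept, the sums were 435, 573, 266 and 484 CPM, lower in the UNx mouse of each batch but with overlap. There 0 of 9 endothelial markers met this rule, and their part in the Igf1 values was not tested. The 6 neural and Schwann cell markers were also lower in both UNx mice, at 179, 141, 119 and 86.1 CPM with all nuclei, and their part in the lower genes was not tested.

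Socs2, which damps growth hormone receptor signalling and is itself switched on by it, was at 74.2 and 70.0 CPM in sham 1 and sham 2 and 32.1 and 28.3 CPM in UNx 1 and UNx 2, a difference of -1.26 ± 0.34 (SE). Unlike Igf1, Socs2 was lower after UNx in all other nuclei too, at 39.4, 59.0, 15.0 and 15.1 CPM. Pappa, a protease outside the fixed list below that cleaves binding proteins of insulin-like growth factor and so frees it, was at 51.9, 65.9, 33.2 and 23.6 CPM in the same order of mice.

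The lowest p among the lower genes belonged to Kif26b, a kinesin-family protein of the kidney mesenchyme (chr1:178529125-178939200). It stood at 61.7 and 77.6 CPM in sham 1 and sham 2 and 19.3 and 26.9 CPM in UNx 1 and UNx 2, a difference of -1.58 ± 0.39 (SE), with -1.61 in batch 3 and -1.48 in batch 4. All other nuclei had 38.2, 51.5, 38.0 and 35.6 CPM, where only the batch 4 pair differed by much, and the difference of effects was -1.35 ± 0.40 (SE) (edgeR adjusted p = 1.00). Others were Spg21, Slc2a9, Lrp1b, Hacl1, Usp31, Snx32 and Lyplal1, with differences from -1.74 to -0.96.

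Of the 26 genes fixed for growth hormone, insulin and related growth signals, 20 were tested and 0 called (2 at an unadjusted p under 0.05, edgeR). By the rule of 1.5-fold in both batches, 0 were higher and 4 lower (Igf1, Igfbp3, Socs2 and Cish), against 1.41% and 2.14% of all genes tested. The list's median log2 difference was -0.20, against 0.02 over all genes. Without group 2, 3 of 19 tested were lower (Igf1, Igfbp3 and Socs2) and 0 higher. Igfbp3, the main carrier of insulin-like growth factor in plasma (chr11:7206086-7213923), was at 328 and 109.6 CPM in sham 1 and sham 2 and 197 and 48.5 CPM in UNx 1 and UNx 2, with -0.73 in batch 3 and -1.15 in batch 4. Within each batch the UNx mouse was lower, but sham 2 lay below UNx 1, so the surgery groups overlapped. In all other nuclei Igfbp3 was lower in both UNx mice too, at 15.9, 14.0, 10.6 and 11.3 CPM. The endothelial class EC1 held more of it than fibroblasts in 3 of 4 mice, at 461, 135, 344 and 33.0 CPM, and was likewise lower in the UNx mouse of each batch. Cish, another feedback inhibitor induced through STAT5 (the transcription factor that growth hormone activates), was at 8.94 and 43.1 CPM in sham 1 and sham 2 and 1.07 and 6.06 CPM in UNx 1 and UNx 2, resting on 10, 85, 1 and 9 counts. Both UNx values lay under both sham values, and so they did in all other nuclei, at 48.3, 49.5, 10.1 and 9.05 CPM. The receptors did not share this pattern: Ghr, the growth hormone receptor, was at 783, 3328, 917 and 2628 CPM and Igf1r at 845, 962, 686 and 916 CPM, and the surgery groups overlapped for both.

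**Figure D4:**
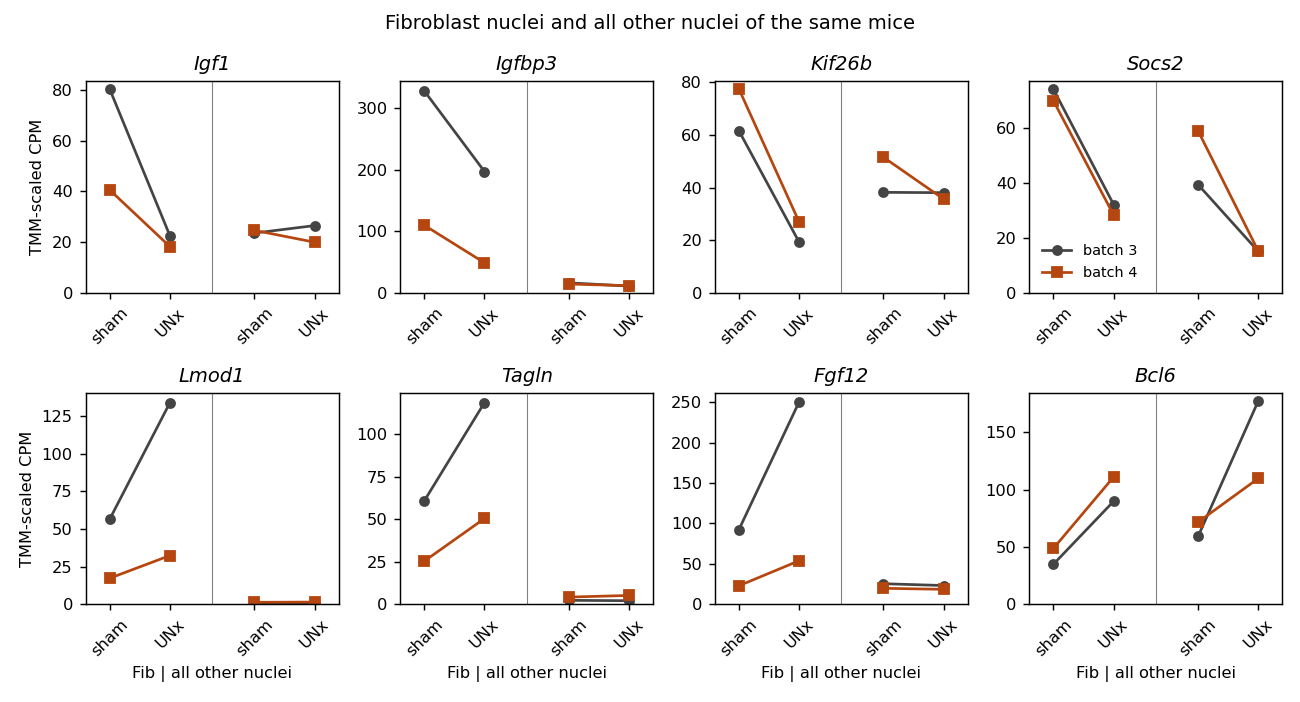
TMM-scaled CPM of 8 genes in fibroblast nuclei (left of each grey line) and all other nuclei (right), with a line joining the sham and UNx mouse of each batch. Igf1, Igfbp3, Kif26b and Socs2 slope down in fibroblast nuclei in both batches, Igfbp3 and Socs2 do so in all other nuclei too, and Lmod1, Tagln and Fgf12 slope up in fibroblast nuclei.

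Bcl6 and Cish are known to answer STAT5 in opposite directions, so their promoter windows are shown with the letters TTCNNNGAA, the core that STAT factors recognise, in capitals. The windows are from RefSeq on GRCm38.p6, run from 250 bases before to 50 bases after an annotated start, and are read on the gene's strand. The motif reads the same on both strands and was in 2722 of 32817 windows (8.29%). Of the 5 genes looked up (Igf1, Igfbp3, Cish, Bcl6 and Socs2), 4 matched. The Igf1 and Igfbp3 windows held 0 matches, which says only that these letters are not in those windows. The Cish window held 2, at window positions 251 and 262, and Bcl6 had 2 windows, 1 with 3 matches, at positions 83, 129 and 163, and 1 at the gene's outer start with 1 match, at position 133. The stretch of Cish is chr9:107296509-107296683 (plus strand) and that of Bcl6, from the window with 3 matches, is chr16:23981284-23981533 (minus strand). A match describes the sequence and is not evidence of binding in these nuclei.
Cish: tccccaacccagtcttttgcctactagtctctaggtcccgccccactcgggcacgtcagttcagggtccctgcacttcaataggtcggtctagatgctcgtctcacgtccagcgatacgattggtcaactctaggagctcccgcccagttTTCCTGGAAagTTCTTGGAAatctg
Bcl6: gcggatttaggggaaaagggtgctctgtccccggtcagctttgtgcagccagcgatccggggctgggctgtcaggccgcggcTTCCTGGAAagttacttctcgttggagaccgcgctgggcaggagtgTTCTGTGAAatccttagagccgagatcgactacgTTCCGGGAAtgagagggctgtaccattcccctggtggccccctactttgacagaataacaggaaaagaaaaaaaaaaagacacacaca

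Genes enriched in fibroblast nuclei were set apart: 552 genes had at least 5 times the CPM of all other nuclei with a mean of at least 20 counts per mouse, a rule chosen after seeing the data. Since the other nuclei are pooled, such a gene can still be high in a small class, as Igfbp3 was in EC1. Of the 552, 5 (0.906%) were at least 1.5-fold higher and 17 (3.08%) at least 1.5-fold lower after UNx in both batches. Among all 8963 genes with that mean count, 1.13% were higher and 1.39% lower. The higher share was thus not above that of all genes, and its 5 members are described and not read as a theme. They were Lmod1, Tagln, Tgfb1i1, Sh3pxd2b and Pdlim4, which are known as genes of actin and smooth muscle contractility or of cell-matrix adhesion. Lmod1, the smooth muscle actin nucleator leiomodin (chr1:135324807-135368065), was at 56.3 and 17.2 CPM in sham 1 and sham 2 and 134 and 32.3 CPM in UNx 1 and UNx 2, and Tagln, the actin-binding transgelin (chr9:45929619-45936058), at 60.8 and 25.4 CPM in sham 1 and sham 2 and 119 and 50.5 CPM in UNx 1 and UNx 2. In both genes UNx was higher within each batch, by 1.23 in batch 3 and 0.85 in batch 4 for Lmod1 and 0.95 in batch 3 and 0.95 in batch 4 for Tagln, while the values of batch 4 lay under those of batch 3 and the surgery groups overlapped. Without group 2, Lmod1 was at 58.2, 39.6, 133 and 145 CPM and Tagln at 62.8, 64.5, 118 and 111 CPM (sham 1, sham 2, UNx 1, UNx 2), and there both UNx mice were above both sham mice. Without group 2, 3 of 8 mural markers tested (Tagln, Ren1 and Kcnj8) were at least 1.5-fold higher in both batches and 0 lower. That compares with 2.33% of all genes tested there higher and 2.7% lower. The median log2 difference of the 8 was 0.68, but Tagln is itself 1 of the genes above. With Tagln left out, the other 9 mural markers summed to 318, 370, 405 and 297 CPM there, with overlap and UNx 2 lowest. The 10 summed to 381, 432, 523 and 397 CPM without group 2, with overlap, and to 368, 225, 520 and 171 CPM with all nuclei, where 1 of 9 was higher (Tagln) and 1 lower (Rgs5). Their part was not tested.

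The lower genes of the 552 included Igfbp3 and others of secreted, matrix or membrane proteins. Mgp, matrix Gla protein, an inhibitor of calcification, was at 218 and 54.3 CPM in sham 1 and sham 2 and 126 and 23.6 CPM in UNx 1 and UNx 2. Crispld2, a secreted protein, was at 201, 84.2, 118 and 41.7 CPM, Lrrc32, which presents latent transforming growth factor beta on the cell surface, at 38.4, 13.7, 16.0 and 4.04 CPM, and the proteoglycan Prelp at 32.2, 14.2, 10.7 and 6.73 CPM. Each of these was lower in the UNx mouse of both batches, and for Mgp, Crispld2 and Lrrc32 sham 2 lay below UNx 1. Others were St6galnac5, Oasl2, Cntn1, Tril, Phf24, Ccdc80 and 5 predicted genes. Without group 2, 3 of the higher and 16 of the lower genes still met the rule.

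Collagens and the genes that organise them showed no common direction. The counts below stand against 1.41% of all genes tested higher and 2.14% lower by the rule of 1.5-fold in both batches. Of 9 fibrillar collagen genes 7 were tested, with 0 at 1.5-fold in both batches and a median log2 difference of 0.11. Col1a2 was at 241, 106, 294 and 101 CPM, Col3a1 at 181, 104, 232 and 76.8 CPM and Col5a1 at 137, 46.7, 186 and 57.9 CPM (sham 1, sham 2, UNx 1, UNx 2). In each, the values of the 2 batches differed more than those of the 2 surgeries. Of 16 other collagens tested, led by Col4a1 (827, 328, 782 and 285 CPM) and Col14a1 (699, 268, 989 and 179 CPM), 0 met the rule either way. Among 27 matrix glycoproteins and proteoglycans 1 was higher (Aspn, asporin, on 8 to 15 counts a mouse) and 1 lower (Prelp), and Lama2, a laminin chain of the class, was at 1712, 536, 1898 and 421 CPM. Of 24 genes of matrix crosslinking and proteolysis, including Adamts12 (415, 84.2, 438 and 80.1 CPM), 0 met it. Pdgfra itself was at 471, 127, 396 and 159 CPM, a difference of -0.11 ± 0.84 (SE), Col1a1 at 81.4, 34.5, 44.9 and 54.5 CPM (difference -0.21, SE 0.53) and Dcn at 175, 76.1, 113 and 68.7 CPM (difference -0.46, SE 0.57). The standard error exceeded the difference in each of these 3 genes with all nuclei kept. Without group 2, both UNx mice lay below both sham mice for Col1a1 (83.1, 102, 42.4 and 76.9 CPM, a difference of -0.70 ± 0.41 (SE), and -0.74 ± 0.31 (SE) with the replicate block) and Dcn (165, 221, 112 and 145 CPM, -0.60 ± 0.32 (SE), and -0.58 ± 0.24 (SE) with the block), none of them called (edgeR adjusted p from 0.979 to 1.000). Pdgfra was then at 481, 281, 392 and 397 CPM, with overlap. The 13 fibroblast markers summed there to 6897, 5242, 6865 and 3580 CPM, so UNx 2 was lowest. The part of that lower sum in the lower genes named here and above was not tested. Without group 2, 2 of 28 matrix glycoproteins and proteoglycans were higher in both batches (Nid2 and Aspn) and 1 lower (Eln), 1 of 22 crosslinking and proteolysis genes was lower (Plat), and collagens again gave 0 of 7 and 0 of 14. Of all genes tested there, 2.33% were higher and 2.7% lower.

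Signalling lists gave similarly few. Of all genes tested, 1.41% were higher and 2.14% lower by the rule of 1.5-fold in both batches, so counts of 0 or 1 in lists this short say little. Of 22 genes of transforming growth factor and bone morphogenetic protein signalling, 21 of PDGF and fibroblast growth factor signalling, 15 of vascular growth, hypoxia and erythropoietin, 14 of the Hippo pathway and 11 of complement, 0 met the rule in either direction. Epo, the erythropoietin gene, was at 107, 168, 112 and 152 CPM in the mice in the order above, without separation of the groups. Tgfbr3, the betaglycan co-receptor, was at 722, 269, 655 and 308 CPM and was arranged by batch. Wnt, Hedgehog and Notch genes had 1 lower of 20 (Wnt4, on 1 to 29 counts), and the renin-angiotensin and prostaglandin list 1 lower of 16 (Ptges, a prostaglandin E synthase, at 19.7, 9.64, 6.42 and 4.04 CPM). Of 17 cytokine, chemokine and adhesion genes, 2 were higher, Il34 and Bcl3 (a nuclear factor kappa B cofactor, at 17.0, 5.58, 32.1 and 12.1 CPM). Of 11 contractile myofibroblast genes, 1 was higher (Tagln), while Acta2, smooth muscle actin, was at 27.7, 32.0, 62.1 and 17.5 CPM and was higher after UNx in batch 3 and lower in batch 4. Immediate early, glucocorticoid response, clock and cell cycle genes had 0 of 12, 0 of 11, 0 of 15 and 0 of 8 by the same rule.

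Without group 2 the members that met the rule were partly others, against 2.33% of all genes higher and 2.7% lower. Of 11 glucocorticoid response genes, 3 were lower: Sgk1, a kinase of sodium transport, at 39.7, 58.3, 20.2 and 17.1 CPM in sham 1, sham 2, UNx 1 and UNx 2, Klf9, a transcription factor, at 279.9, 298, 140.0 and 162 CPM, and Mt1, a metallothionein, at 37.9, 77.0, 23.3 and 42.7 CPM. The list's median log2 difference there was 0.10 with the replicate block. Of 22 transforming growth factor and bone morphogenetic protein genes, 2 were lower, the ligand Bmp4 and its target Id3. Of 13 Hippo genes 1 was higher (Tead3), and of 13 clock genes 1 was higher (Per2) and 1 lower (Arntl). The Wnt, Hedgehog and Notch list had 1 of 17 lower, now Hhip, an antagonist of Hedgehog ligands, and the renin-angiotensin and prostaglandin list 1 of 13, now Ptger4, a prostaglandin E receptor. Cytokine genes had the same 2 of 15 higher and 1 lower (Cxcl14), and contractile genes 1 of 10 higher (Tagln). PDGF and fibroblast growth factor, vascular, complement, immediate early and cell cycle genes had 0 of 15, 0 of 14, 0 of 8, 0 of 10 and 0 of 6.

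Cholesterol synthesis was the list with most members higher, 4 of 20 tested, among them Hmgcs1, Mvd and Insig1, with 0 lower and a median log2 difference of 0.35. Of all genes tested, 1.41% were higher and 2.14% lower by that rule. Hmgcs1, which makes the precursor of the pathway's rate-limiting step, was at 36.7 and 185 CPM in sham 1 and sham 2 and 70.6 and 328 CPM in UNx 1 and UNx 2. In both batches the UNx mouse was higher, and both mice of batch 4 lay above both of batch 3. Its level in all other nuclei was 191, 238, 189 and 362 CPM, so it was lower in fibroblast than in other nuclei in every mouse, and batch 4 fibroblast nuclei also held most tubule marker RNA. Without group 2, 1 of the 11 members tested (Hmgcs1) was higher in both batches, against 2.33% of all genes tested there. The part of tubule RNA in this list was not tested.

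Calls appeared when group 2 was left out and the batch kept as a block, an alternative chosen after seeing the data. Of 9156 genes, 4 (0.0437%) had an adjusted p under 0.05 in edgeR. Fgf12, an intracellular fibroblast growth factor homologue that modulates sodium channels (chr16:28160098-28753068), rose, at 94.2 and 16.7 CPM in sham 1 and sham 2 and 248 and 103 CPM in UNx 1 and UNx 2, a log2 difference of 1.67 ± 0.29 (SE) with edgeR adjusted p = 0.0208. The UNx mouse was above the sham mouse within each batch, while in all other nuclei Fgf12 was at 25.4, 19.7, 23.2 and 18.5 CPM. The Fgf12 values of fibroblast nuclei rest on 102, 8, 234 and 24 counts. Cd36, a fatty acid transporter, rose, at 14.8, 52.0, 45.6 and 218 CPM in the same order and a difference of 1.86 ± 0.34 (SE) (edgeR adjusted p = 0.0340), and in all other nuclei its level was 113, 104, 252 and 339.9 CPM, also higher in both UNx mice. In fibroblast nuclei the sham and UNx values of Cd36 overlapped across batches, since sham 2 was above UNx 1. Chrm3, a muscarinic acetylcholine receptor, fell, at 71.1 and 127 CPM in sham 1 and sham 2 and 15.9 and 4.27 CPM in UNx 1 and UNx 2, a difference of -2.71 ± 0.45 (SE) with edgeR adjusted p = 0.0142, resting on 77, 61, 15 and 1 counts. In all other nuclei Chrm3 was at 216, 120, 244 and 188 CPM, above the fibroblast level in sham 1, UNx 1 and UNx 2, and higher in the UNx mouse of each batch. Slc14a2, the urea transporter of the medullary collecting duct and thin limb, fell, with a difference of -2.27 ± 0.34 (SE) (edgeR adjusted p = 0.00757). It was at 368, 70.8, 55.2 and 42.7 CPM, on 398, 34, 52 and 10 counts, so sham 1 stood far above the other mice. In all other nuclei it was at 451, 606, 599.8 and 516 CPM. Without the block, and with group 2 kept in every alternative run, 0 genes were called (edgeR), so these 4 calls rest on both choices. Their levels with all nuclei kept were 92.1, 22.8, 250.3 and 53.9 CPM for Fgf12, 15.2, 99.9, 49.2 and 244 CPM for Cd36, 84.9, 151, 16.0 and 61.3 CPM for Chrm3 and 357, 187, 55.6 and 179.8 CPM for Slc14a2.

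The effect of UNx in fibroblast nuclei was then set against that in other nuclei of the same mice. Against the 144 mural and juxtaglomerular nuclei (52, 18, 52 and 22 in sham 1, sham 2, UNx 1 and UNx 2), 0 of 10363 genes (0%) differed in their effect (edgeR, 202 at an unadjusted p under 0.05). By lowest p, the effect in fibroblasts was the more positive for Adamts9, Gpc4 and Nrg1 and the more negative for Mir100hg, Pdgfd and Cnnm2. The matrix protease Adamts9 was at 596, 317, 969 and 236 CPM in fibroblast nuclei and at 439, 191, 188 and 60.6 CPM in mural nuclei, the latter from few nuclei. Against all 15902 other nuclei, 0 of 19053 genes (0%) differed (75 at an unadjusted p under 0.05, edgeR). Prkar2b and G0s2 were among those with the lowest p for a more negative effect, and Col5a2, Cd209c and Irs2 had it for a more positive one. Irs2, an adaptor of insulin and growth factor receptors, was at 55.4, 59.9, 55.6 and 28.3 CPM in fibroblast nuclei and at 69.1, 67.8, 19.9 and 21.9 CPM in other nuclei.

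Without group 2, 10 of 18738 genes (0.0534%) had an adjusted p under 0.05 (edgeR) for a difference between the effect in fibroblasts and that in all other nuclei. The p-values of this fit are those of a normal distribution, which treats the variation among mice as known. With 2 mice per surgery it is not well known, so these calls are less firm than their p-values. Col5a2, a type V collagen chain (chr1:45374321-45503282), was at 92.4, 162, 147 and 103 CPM in fibroblast nuclei of sham 1, sham 2, UNx 1 and UNx 2 and at 79.1, 90.4, 24.7 and 19.0 CPM in other nuclei, a difference of effects of 1.98 ± 0.39 (SE) (edgeR adjusted p = 0.00362). In other nuclei the level was lower in both UNx mice, whereas in fibroblast nuclei the UNx mouse was higher than the sham mouse in batch 3 and lower in batch 4. Ehhadh, Fgf12, Fam111a and Keg1 likewise had a more positive effect in fibroblasts, which need not be a rise there. Keg1 was at 106, 423, 71.1 and 218 CPM in fibroblast nuclei, lower after UNx within each batch. In other nuclei Keg1 was at 4076, 3285, 559 and 747 CPM. Ehhadh was at 21.2, 45.8, 18.0 and 68.3 CPM in fibroblast nuclei and at 218, 214, 35.4 and 81.5 CPM in other nuclei. Slc14a2, Chrm3, Ston2, Pcdh17 and Shank3 were more negative. Some of these calls rest on levels at or near 0 in fibroblast nuclei. In the same order of mice, Ston2 was at 29.6, 22.9, 4.24 and 0 CPM and Shank3 at 18.5, 39.6, 2.12 and 0 CPM. Fam111a, among the more positive, was at 5.54, 0, 17.0 and 25.6 CPM. Ehhadh, a peroxisomal fatty acid enzyme, and Keg1 are known as genes of kidney tubules and liver.

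The 13 fibroblast markers were also read in whole kidney libraries of other mice. In bulk tissue, fewer cells of a type and less RNA per cell cannot be told apart. At 24 h, 3 of the 12 markers tested rose and 0 fell, against 14.2% and 13.1% of all genes. Col3a1 ranged from 16.5 to 34.6 CPM in sham mice (median 27.0) and from 33.2 to 76.6 CPM in UNx mice (median 38.3), a log2 change of 0.78, SE 0.22, edgeR adjusted p = 0.0150, and Col1a2 from 14.3 to 31.5 CPM in sham mice (median 24.3) and from 27.5 to 54.8 CPM in UNx mice (median 34.6), a change of 0.70, SE 0.19, edgeR adjusted p = 0.0116. The sham and UNx ranges overlapped for both genes. UNx replicate 4 stood apart as the highest library for 6 of the markers, and without it 3 markers were still called, while the median log2 change of the markers dropped from 0.54 to 0.20. With the share of mitochondrial counts as a covariate 0 were called.

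At 48 h, 0 of 13 markers rose and 7 fell, among them Pdgfra, Dcn, Lum, Dpt, Gsn and Abca8a, against 16.9% and 16% of all genes. Pdgfra ranged from 20.7 to 34.6 CPM in sham mice (median 26.0) and from 9.20 to 22.0 CPM in UNx mice (median 15.4), a change of -0.78, SE 0.21, edgeR adjusted p = 0.0112. Gsn, the actin-severing gelsolin, ranged from 70.1 to 132 CPM in sham mice (median 78.6) and from 39.9 to 57.8 CPM in UNx mice (median 51.9), with no overlap (-0.82, SE 0.15, edgeR adjusted p = 0.00149), and Dpt, the matrix protein dermatopontin, changed by -1.29, SE 0.29, edgeR adjusted p = 0.00494. The mitochondrial share was 14.0 to 15.5% in sham libraries at 48 h, 25.8 to 26.4% in UNx replicates 1 to 5 and 15.2% in UNx replicate 6. With that share as a covariate, or with UNx replicate 6 as the only UNx library, 0 markers were called, and without replicate 6, 7 were. The mitochondrial share and the surgery cannot be told apart at 48 h. At 72 h, 0 of 13 markers were called in either direction (edgeR), against 1.21% and 0.502% of all genes.

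**Figure D5:**
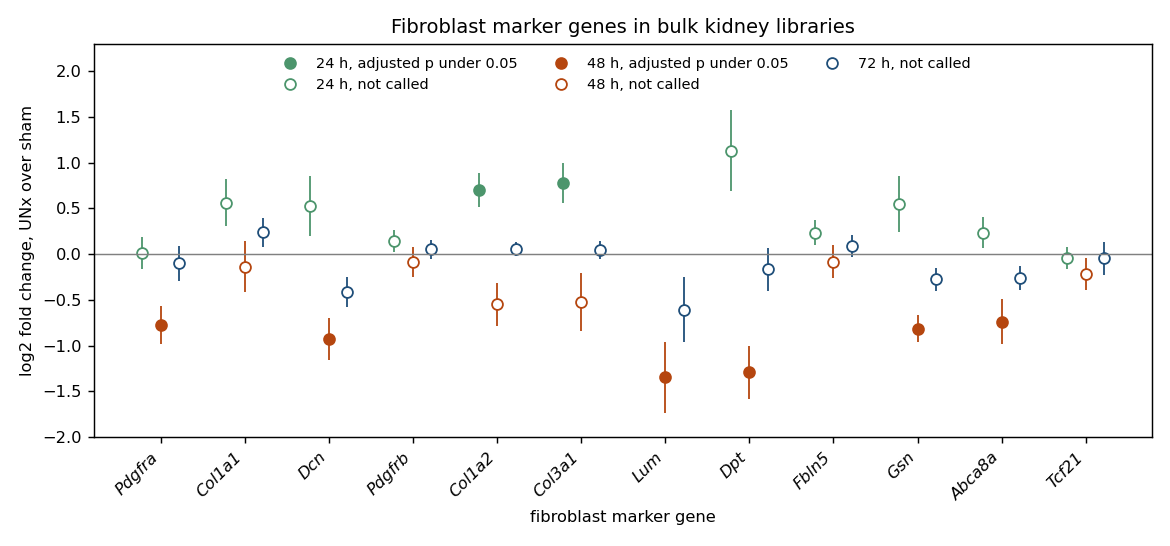
Log2 fold change, UNx over sham, of 12 fibroblast markers in bulk kidney at 24, 48 and 72 h (6 against 6 mice at each time), with bars of 1 SE and filled points for an adjusted p under 0.05. Filled points lie above 0 at 24 h for Col1a2 and Col3a1 and below 0 at 48 h for Pdgfra, Dcn, Lum, Dpt, Gsn and Abca8a, and Lum was not tested at 24 h.

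Genes that differed in the nuclei did not all do so in whole tissue. Tagln rose in bulk at 24 h, from a range of 8.01 to 13.6 CPM in sham to 14.4 to 25.2 CPM in UNx mice without overlap (0.83, SE 0.15, edgeR adjusted p = 0.00117), and it was still called with the mitochondrial covariate, 0.81 (adjusted p = 0.0415). Acta2 rose at 24 h (0.96, SE 0.25, edgeR adjusted p = 0.0104) and at 48 h (0.79, SE 0.25, edgeR adjusted p = 0.0266). With the mitochondrial covariate Acta2 was 1.25 (adjusted p = 0.0434) at 24 h and 0.67 (adjusted p = 0.566) at 48 h, where the call was lost, and without UNx replicate 4 its change at 24 h was 0.65. Both genes are expressed at high levels in the smooth muscle of renal arteries, so bulk values do not single out fibroblasts. Igf1 was not called at 24 h (0.28, SE 0.20, edgeR adjusted p = 0.332), fell at 48 h (-0.62, SE 0.19, edgeR adjusted p = 0.0239), which was lost with the mitochondrial covariate, -0.61 (adjusted p = 0.540), and was not called at 72 h (-0.33, SE 0.11, edgeR adjusted p = 0.148). Igfbp3 was not called at 24 h (-0.08, SE 0.11, edgeR adjusted p = 0.648) or at 72 h (-0.34, SE 0.09, edgeR adjusted p = 0.0679), while with the mitochondrial covariate it fell at 24 h, -0.43 (adjusted p = 0.0494). Bcl6 and Cish went against the nuclei at 24 h. Bcl6 ranged from 10.3 to 92.3 CPM in sham mice (median 55.0) and from 7.84 to 44.9 CPM in UNx mice (median 8.52) and fell (-1.72, SE 0.57, edgeR adjusted p = 0.0356), whereas Cish ranged from 6.91 to 35.2 CPM in sham mice (median 18.8) and from 28.0 to 44.4 CPM in UNx mice (median 36.9) and rose (0.84, SE 0.27, edgeR adjusted p = 0.0325). Both had wide ranges among sham mice at every time. With the mitochondrial covariate the changes were -2.15 (adjusted p = 0.243) for Bcl6, larger but with an SE of 1.03, and 0.67 (adjusted p = 0.324) for Cish, and neither was called. Without UNx replicate 4, Bcl6 was at -1.60 and no longer called (edgeR adjusted p = 0.0624). Il34, Socs2 and Fgf12 were called at none of the 3 times.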

How the data were processed

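Nuclei of 4 mice (droplet kit reading the 3' end, sorted by a DNA stain) and bulk polyadenylated RNA of 36 mice were measured. The authors deposited estimated counts, not normalized, for both: Salmon 1.5.0 and GRCm39 for bulk and alevin, Seurat and mm10 for nuclei, per the submitters' processing notes, which give no settings. Of the nucleus values above 0, 13.9% were not whole. The nucleus table held 32285 genes, and no nucleus had under 1755 UMIs, so a filter preceded deposit. Bulk libraries held 14.9 to 24.1 M counts (M, 1000000), and 28340 of 28467 bulk genes had a symbol in GENCODE M21. Coordinates are from that annotation (GRCm38).

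Counts were summed over the Fib nuclei of each mouse, rounded and tested with edgeR 4.0.16 (quasi-likelihood, filterByExpr, TMM, two-sided, Benjamini-Hochberg adjustment over all genes tested, threshold 0.05) in R 4.3.3, 2 against 2 mice. Differences between effects were interaction terms with the mouse as a block. Within-batch differences used log2 CPM with a prior count of 2. Bulk was fitted per time, 6 against 6. DESeq2 1.42.0, limma 3.58.1, other scalings, no filter, left-out mice, the batch block and subsets of nuclei were alternatives. Principal components (10) and k-means used scikit-learn 1.9.0. The fits were tested on simulated data. The labels name each mouse, and replicate 1 and 2 of the nuclei share batch 3 and batch 4, so these numbers pair the mice; sham 1 minus sham 2 and UNx 1 minus UNx 2 correlated at r = 0.808 over 11463 genes, which are not independent replicates. No replicate pair matched within counting noise.

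Named genes were the 12 with the lowest p in each direction among those with a mean of at least 20 counts, surgery groups that did not overlap and an established symbol; the 20 defining genes by ratio to the next class; up to 4 members of highest CPM per list; and 3 genes per direction for differences of effects. Some genes are not reported here by name, but counts and sums over lists include them. The members, lists and tests were chosen with earlier results of these data known.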

Additional observations from a re-analysis of the deposited data

Results flagged for a closer look

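In whole kidney, 10 of 78 group and marker combinations of 6 libraries held a library set apart from the others by Dixon's criterion, which chance alone gives in about 1 in 20. At 24 h, 6 of these were UNx replicate 4, each time as the highest library. Its levels were 40.88 CPM for Col1a1 (median of the other 5 libraries 16.4), 56.13 CPM for Dcn (17.1), 76.62 CPM for Col3a1 (37.2), 4.29 CPM for Lum (0.478), 5.148 CPM for Dpt (1.49) and 160.5 CPM for Gsn (44.2). Gsn encodes an actin-severing protein and the other 5 genes proteins of the matrix, while Pdgfra, Pdgfrb and Tcf21 did not stand apart in that library. Without it, 3 markers were again called higher at 24 h, but the median log2 change of the markers went from 0.54 to 0.20, that of Dcn from 0.53 to 0.02, that of Gsn from 0.55 to 0.04 and that of Col1a1 from 0.56 to 0.23.

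At 72 h, UNx replicate 6 was the highest library for Pdgfra, at 40.09 CPM against a median of 22.8 in the others, and for Gsn, at 100.3 CPM against 61.8. UNx replicate 2 was the lowest for Abca8a at 72 h, at 7.57 CPM against 11.1. UNx replicate 1 was the highest for Tcf21 at 24 h, at 8.577 CPM against 6.31.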

How the results depend on the processing

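With 2 mice per surgery, the fit of fibroblast nuclei called 0 genes under every alternative with group 2 kept, including DESeq2, limma voom, no filter, no mitochondrial genes, and each mouse left out in turn (range 0 to 0; the lone mouse is then assumed to vary like the others). Leaving out mice also gave 0 to 0 for both differences of effects. With the replicate block, 0 were called, with 593 instead of 18 at an unadjusted p under 0.05. Without k-means group 2 and with the replicate block 4 were called, and the difference from all other nuclei without group 2 called 10; the cause was not tested. The block changed no other call in the nuclei. Of 419 values of the named genes under these alternatives, 0 reversed, but these genes were chosen for separated groups in the same mice. The share difference was -1.668 points among nuclei outside the proximal tubule classes and ranged from -1.493 to -0.2967 with a mouse left out.

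In bulk, replicate numbers did not pair the mice (correlations -0.295 to 0.141 by time), and a replicate block gave 4 markers higher at 24 h, 7 lower at 48 h and 0 at 72 h. With the mitochondrial share as a covariate 0 were higher at 24 h and 0 lower at 48 h, and at 48 h without UNx replicates 1 to 5, 0 were lower. Of 210 log2 changes of single markers under the alternatives, 8 reversed. With the mitochondrial covariate these were Pdgfra (-0.4508 at 24 h, 0.08672 at 72 h), Pdgfrb (-0.1729 at 24 h), Fbln5 (-0.1415 at 24 h, 0.03133 at 48 h) and Abca8a (-0.1991 at 24 h). Pdgfra at 24 h was -0.05021 without UNx replicate 4, and Fbln5 at 48 h 0.09428 without UNx replicates 1 to 5. The cause was not tested.

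Depth limits single genes of the nuclei: Cish and Wnt4 rest on 1 count in UNx 1, and Chrm3 without group 2 on 1 count in UNx 2. Without group 2, Fgf12 rests on 8 counts in sham 2 and Slc14a2 on 10 in UNx 2. Igf1 rests there on 2 counts of group 1 and 1 of group 3 in UNx 2. In UNx 2 without group 2, 1 count is 4.27 CPM, so other low levels, such as that of Sgk1, also rest on few counts. Ston2 and Shank3 were at 0 CPM in UNx 2 there, and Fam111a at 0 CPM in sham 2.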
